A study of Mus musculus with 2 samples.

Results

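Bone morphogenetic protein (BMP) antagonists were examined in mouse periosteum as a set of 9 genes, Grem1, Nog, Chrd, Chrdl1, Bmper, Fst, Fstl1, Sostdc1 and Twsg1, taken by name from the 31253 genes measured. Transcripts were counted as unique molecular identifiers (UMIs), each of which tags a single captured molecule. The level of a gene in a cell type is given in CPM, its UMIs per 1000000 UMIs of that type, in each library apart. Cell types were set from marker genes that include none of the 9, and each is written with the ending -like because it rests on those markers.

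BMPs are secreted ligands that bind receptor kinases on the cell surface and signal through SMAD proteins, and they are known for driving skeletal progenitors toward cartilage and bone. Antagonists are secreted into the same space and bind the ligands there, so that less ligand reaches its receptors. Gremlin 1 (Grem1), noggin (Nog) and chordin (Chrd) hold BMPs directly. Follistatin (Fst) is best known for binding activins, and twisted gastrulation (Twsg1) works together with chordin.

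Periosteal cells were taken from femurs and tibias of 8-week mice and sorted for Prx1-lineage cells, which carry the red Ai9 reporter. The control library came from Prx1 Cre; Ai9/+ animals and the other from Prx1 Cre; Ai9/+; Piezo1 fl/fl animals, so Cre and reporter were common to both groups. Prx1 Cre, driven by Prrx1 sequences, acts in limb mesenchyme from early development, and the loss of Piezo1, a gene for a mechanically gated ion channel, was therefore not limited to 1 periosteal cell type. There was 1 library per genotype, with the number of animals not given in the sources used here, so no test was possible and genotype and library cannot be told apart. Intervals throughout are exact 95% intervals that cover counting error only.

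Despite the sort, endothelial-like and blood-like cells were present. After filters, 4418 control cells and 5084 Piezo1 fl/fl cells remained, and 50 of 13587 barcodes occurred in both libraries. Cells of control and Piezo1 fl/fl numbered 796 and 1041 in the SSPC-1-like type (skeletal stem/progenitor cells marked by Egfl6, Gpha2 and Col8a1) and 772 and 394 in the SSPC-2-like type (Tnn, Postn and Sp7). Tendon-like cells numbered 214 and 568, fibroblast-like cells 1632 and 1582, mural-like cells 296 and 363, endothelial-like cells 172 and 142, lining-like cells 55 and 124 and blood-like cells 415 and 522. The paper describes Angptl7 as specific to SSPC-1 among periosteal cells and also present in tendon. Here Angptl7 was no naming marker, and it was listed among the leading genes of the tendon-like clusters, not of the SSPC-1-like clusters. Leading genes of the Piezo1 fl/fl SSPC-1-like cluster held Gpha2 but not Egfl6 or Col8a1. The SSPC-1-like type need not match the SSPC-1 of the paper. Median UMIs per cell in SSPC-1-like cells were 5214 in control and 3942 in Piezo1 fl/fl. The SSPC-1 marker list summed to 10317 CPM in control and 7166 CPM in Piezo1 fl/fl SSPC-1-like cells with none of its 8 genes at 0. The tendon list summed to 9171 and 11929 CPM in these cells, in Piezo1 fl/fl above the SSPC-1 list. In tendon-like cells it summed to 44487 and 23622 CPM. The mature osteoblast list summed to 7227 and 17131 CPM in SSPC-2-like cells, with 1 of 9 genes and none at 0. The targeted gene, Piezo1, had 147 UMIs over all control barcodes and 74 over all Piezo1 fl/fl barcodes, or 5.24 and 2.29 CPM, with an interval of the log2 ratio from -1.62 to -0.78. In SSPC-1-like cells Piezo1 had 11 and 5 UMIs, in SSPC-2-like cells 35 and 4, in tendon-like cells 7 and 4 and in fibroblast-like cells 36 and 24. The counted 3′ tags need not lie in the deleted part of the gene.

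Of the 9 genes, 5 had a promoter in the RefSeq table for GRCm38.p6. The 250 bases before the start are shown for Grem1 (chr2:113758649-113758898, minus strand), Chrd (chr16:20732877-20733126, plus strand) and Bmper (chr9:23222826-23223075, plus strand), because these 3 genes stood highest in different cell types, as described below. Each runs 5′ to 3′, and capitals mark GGCGCC, a GC-rich SMAD element searched on both strands, which read alike.

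Grem1: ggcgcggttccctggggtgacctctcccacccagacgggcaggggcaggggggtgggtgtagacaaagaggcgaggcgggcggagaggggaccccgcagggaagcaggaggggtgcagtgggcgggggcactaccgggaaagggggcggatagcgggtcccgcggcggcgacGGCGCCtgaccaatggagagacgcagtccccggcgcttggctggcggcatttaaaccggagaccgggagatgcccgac

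Chrd: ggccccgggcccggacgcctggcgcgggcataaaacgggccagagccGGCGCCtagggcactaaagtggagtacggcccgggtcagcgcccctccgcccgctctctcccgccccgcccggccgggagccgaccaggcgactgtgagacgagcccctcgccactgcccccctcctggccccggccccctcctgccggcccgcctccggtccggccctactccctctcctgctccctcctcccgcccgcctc

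Bmper: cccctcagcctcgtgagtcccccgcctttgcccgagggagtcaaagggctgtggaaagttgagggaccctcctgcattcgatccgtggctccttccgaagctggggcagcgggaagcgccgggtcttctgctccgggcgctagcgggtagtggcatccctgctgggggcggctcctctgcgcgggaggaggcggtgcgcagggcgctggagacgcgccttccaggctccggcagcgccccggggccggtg

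GGCGCC occurred once in the Grem1 window, 78 bases before the start, and once in the Chrd window, 203 bases before it. It was in 9.59% of 32817 promoter windows of the same length. Neither the TATA box TATAAA, the RUNX letters TGTGGT nor the TEAD letters GGAATG occurred in any of the 5 windows, against 12.4%, 14.0% and 12.6% of all windows on either strand. The GC content was 72.0% for Grem1, 78.0% for Chrd and 71.6% for Bmper, with a median of 52.4% over all windows. A match of letters is a description of the window and not a binding site.

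Grem1 (ENSMUSG00000074934; GRCm38 chromosome 2, 113746164 to 113758646, minus strand) was found almost wholly in the skeletal stem/progenitor types. In the control library its level was 107 CPM (97.7 to 117, 494 UMIs) among SSPC-1-like cells, 66.0 CPM (59.4 to 73.2, 361 UMIs) among SSPC-2-like cells, and 4.77 CPM or less in each of the other 6 types. In the Piezo1 fl/fl library it was 41.7 CPM (36.1 to 47.8, 203 UMIs) and 71.2 CPM (61.2 to 82.3, 183 UMIs) in these types, and 2.44 CPM or less in the other 6. The order of the pair therefore differed between the libraries, while the other types stood far below both. The SSPC-1-like and the SSPC-2-like type held 54.9% and 40.1% of the Grem1 UMIs of retained control cells, and 48.7% and 43.9% of those of Piezo1 fl/fl cells.

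Few cells carried Grem1, and their counts were uneven. A UMI was found in 109 of the control SSPC-1-like cells (13.7%) and 118 of the control SSPC-2-like cells (15.3%), against 3 of 415 blood-like cells (0.723%), at medians of 5214, 5947.5 and 3767 UMIs. With cells thinned to 2500 UMIs, and 77, 33 and 95 shallower cells left out, the shares were 9.04% and 9.20%, and 0 of 320 blood-like cells had one, where the floor of 3 counts is a share of cells with a UMI of 0.938% and the exact upper bound 1.15%. The Piezo1 fl/fl shares were 5.28% and 11.2%, or 4.86% and 9.16% after thinning, which left out 156 and 23 cells. The 5 richest cells held 28.1% of the control SSPC-1-like Grem1 UMIs and 47.5% of those in Piezo1 fl/fl SSPC-2-like cells, where a single cell had 44 UMIs.

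Within each type, cells with Grem1 carried more of the other type's markers. Control SSPC-1-like cells with a Grem1 UMI had 3717 CPM of the SSPC-2 marker list and those without had 1179 CPM. In the SSPC-2-like type the SSPC-1 list summed to 2531 CPM in Grem1-bearing cells and 1353 CPM in the rest. The same order was found in Piezo1 fl/fl, where the SSPC-2 list summed to 4135 and 707 CPM in SSPC-1-like cells with and without Grem1, and the SSPC-1 list to 2008 and 1208 CPM in the SSPC-2-like type. Osteoblast markers went the other way between SSPC-2-like cells with and without Grem1. The mature osteoblast list summed to 3502 CPM in control cells with Grem1 and 7999 CPM in those without. In Piezo1 fl/fl the sums were 6350 and 18561 CPM. Control clusters at a finer resolution differed from this: 241 cells, 208 of them SSPC-2-like, formed a cluster with 24496 CPM of that list. Grem1 was higher there, at 90.2 CPM and in 19.9% of cells, than in the 562 cells of the SSPC-2-like cluster (51.6 CPM, 12.5%). The 33 mature osteoblast-like cells of control at the usual resolution had no Grem1 UMI. These sums and levels are descriptions without a test. Cells with Grem1 also had more UMIs in control (medians of 6228 and 5001 in SSPC-1-like cells).

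Nog (ENSMUSG00000048616; chromosome 11, 89300638 to 89302332, minus strand) encodes noggin, which binds BMP2 and BMP4 tightly. Its control level was 45.3 CPM (39.3 to 51.8, 209 UMIs) in SSPC-1-like and 45.0 CPM (39.5 to 51.0, 246 UMIs) in SSPC-2-like cells, a pair that did not differ beyond counting error (log2 ratio 0.01, -0.26 to 0.28). Tendon-like and fibroblast-like cells followed at 12.7 and 12.1 CPM, and mural-like and lining-like cells had no UMI. The levels in Piezo1 fl/fl were 17.4 CPM (13.9 to 21.6, 85 UMIs) and 22.6 CPM (17.1 to 29.2, 58 UMIs), again within counting error of each other. Among the 8 types Nog was thus highest in the same pair as Grem1 in both libraries, at lower levels in Piezo1 fl/fl. It was less confined to that pair. Fibroblast-like cells held 18.9% of the Nog UMIs of retained control cells. In Piezo1 fl/fl they held 35.3% at 9.40 CPM, beside 32.9% and 22.5% in the pair, and their Inmt cluster was at 19.1 CPM (12.8 to 27.4). A Nog UMI was found in 17.5% and 16.6% of the control cells of the pair and in 0.964% of blood-like cells.

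In the control library Nog was found more often in cells with Grem1 than in cells without it. Of 109 SSPC-1-like cells with Grem1, 31 also had Nog (28.4%, 20.2 to 37.9), against 108 of 687 without Grem1 (15.7%, 13.1 to 18.7). In SSPC-2-like cells the shares were 31.4% (23.1 to 40.5) and 13.9% (11.4 to 16.8). Fst showed the same in SSPC-2-like cells, at 29.7% with Grem1 and 15.4% without, but not in SSPC-1-like cells, at 36.7% and 36.0%. The Piezo1 fl/fl shares with Nog were 7.27% and 5.78% in the SSPC-1-like type and 11.4% both with and without Grem1 in the SSPC-2-like type. The Fst shares there were 16.4% with and 29.6% without Grem1 in the first type and 22.7% and 8.57% in the second. Whether the libraries differ in these shares was not tested. Cells with Grem1 had the higher median UMIs, 6630 against 5745 in control SSPC-2-like cells, and the part of depth in the shares was not tested.

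Chordin and its relatives stood lower in SSPC-2-like than in SSPC-1-like cells. Chrd (ENSMUSG00000006958; chromosome 16, 20733127 to 20742384, plus strand) stood at 45.3 CPM (34.3 to 58.7) in control tendon-like cells, 29.6 CPM in fibroblast-like, 26.2 CPM in SSPC-1-like and 11.5 CPM in SSPC-2-like cells. The fibroblast-like and SSPC-1-like levels did not differ beyond counting error. Piezo1 fl/fl cells had 30.5, 27.2, 24.6 and 8.17 CPM in these types, of which the first 3 lay within counting error of their neighbours. Exons of Chrd overlap those of Thpo on the other strand, which had 68 and 61 UMIs in the libraries in all, against 568 and 624 for Chrd, and whether counting used strand was not stated.

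Chrdl1 (ENSMUSG00000031283; chromosome X, 143285674 to 143394262, minus strand), a chordin-like antagonist, differed most between the stem/progenitor types. Its control level was 197 CPM (184 to 210.3, 910 UMIs) in the SSPC-1-like type and 7.68 CPM (5.54 to 10.4, 42 UMIs) in SSPC-2-like cells. Piezo1 fl/fl cells gave 216 CPM (203 to 229, 1051 UMIs) and 7.39 CPM (4.45 to 11.5, 19 UMIs). Tendon-like cells stood at 257 CPM, above the SSPC-1-like level, in control and at 217 CPM, within counting error of it, in Piezo1 fl/fl, and fibroblast-like cells stood at 148 and 151 CPM. The SSPC-2-like level was close to that of blood-like cells, 7.42 CPM in control, and 5 cells held 52.6% of the 19 UMIs in Piezo1 fl/fl.

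Bmper (ENSMUSG00000031963; chromosome 9, 23223076 to 23485200, plus strand) encodes a protein with chordin-like repeats that binds BMPs and has been described as both inhibitor and helper. Its control level was highest in fibroblast-like cells at 81.2 CPM (75.5 to 87.2, 754 UMIs), then 19.1 CPM (15.3 to 23.5) in SSPC-1-like cells and 4.24 CPM or less in the other 6 types compared. Among fibroblasts the Inmt fibroblast-like cluster had 135 CPM and the Pi16 fibroblast-like cluster 32.3 CPM. The Piezo1 fl/fl library had 484 UMIs in fibroblast-like cells (45.7 to 54.7 CPM), with 100.3 CPM in a mixed cluster, 19.1 CPM in the Inmt cluster and 8.12 CPM in the Pi16 cluster. The cluster split of fibroblasts was not the same in the libraries, so the clusters are given side by side only.

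Fst (ENSMUSG00000021765; chromosome 13, 114452290 to 114458951, minus strand) was shared by several types. In control its level was 179 CPM (167 to 192, 828 UMIs) in SSPC-1-like and 173 CPM (165 to 182, 1610 UMIs) in fibroblast-like cells, which did not differ beyond counting error, then 130.4 CPM in mural-like, 48.1 CPM in SSPC-2-like cells and 27.8 CPM in tendon-like ones. Mural-like cells of Piezo1 fl/fl were highest at 198 CPM, followed by SSPC-1-like cells at 116 CPM (107 to 126), fibroblast-like at 95.7 CPM, tendon-like at 71.8 CPM and SSPC-2-like at 26.8 CPM. The mural-like value rested on very few cells: 5 cells held 94 of 170 UMIs in control and 301 of 324 in Piezo1 fl/fl, and the other mural-like cells were at 59.0 and 14.4 CPM. With both libraries clustered together, a cluster led by the skeletal muscle genes Acta1 and Tnnt3 took 28 control and 14 Piezo1 fl/fl mural-like cells, and these held 155 and 144 of the mural Fst UMIs. The muscle marker list summed to 993 and 218 CPM in mural-like cells with 2 and 3 of 6 genes at 0, yet to 0 and 44.2 CPM in the 5 richest cells.

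Fstl1 (ENSMUSG00000022816; chromosome 16, 37776873 to 37836514, plus strand), a follistatin-like protein of connective tissue, had a UMI in at least 92.9% of the cells of the stem/progenitor, tendon-like and fibroblast-like types and in 75.7% and 75.8% of mural-like cells. Its level was 5540 CPM in control fibroblast-like cells, 2231 CPM in SSPC-1-like, 1724.5 CPM in tendon-like and 1549 CPM in SSPC-2-like cells, and 230 CPM in blood-like cells. The same types of Piezo1 fl/fl were at 6885, 2426, 4421, 1013 and 311 CPM. The share of cells with a UMI was 99.4% in control fibroblast-like cells and 28.7% in blood-like cells. Twsg1 (ENSMUSG00000024098; chromosome 17, 65921972 to 65951226, minus strand) varied little among mesenchymal types, from 116 to 167 CPM in 5 of the 8 control types, with 259 CPM (215 to 308) in lining-like cells and 35.9 and 23.9 CPM in endothelial-like and blood-like cells. Sostdc1 (ENSMUSG00000036169; chromosome 12, 36314139 to 36318452, plus strand), which encodes a sclerostin domain antagonist, was near the limit of detection, with 14 and 13 UMIs in the retained cells of the libraries. Of these, 13 lay in 12 control SSPC-1-like cells, and 9 of the 13 in Piezo1 fl/fl came from a single fibroblast-like cell.

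**Figure D1:**
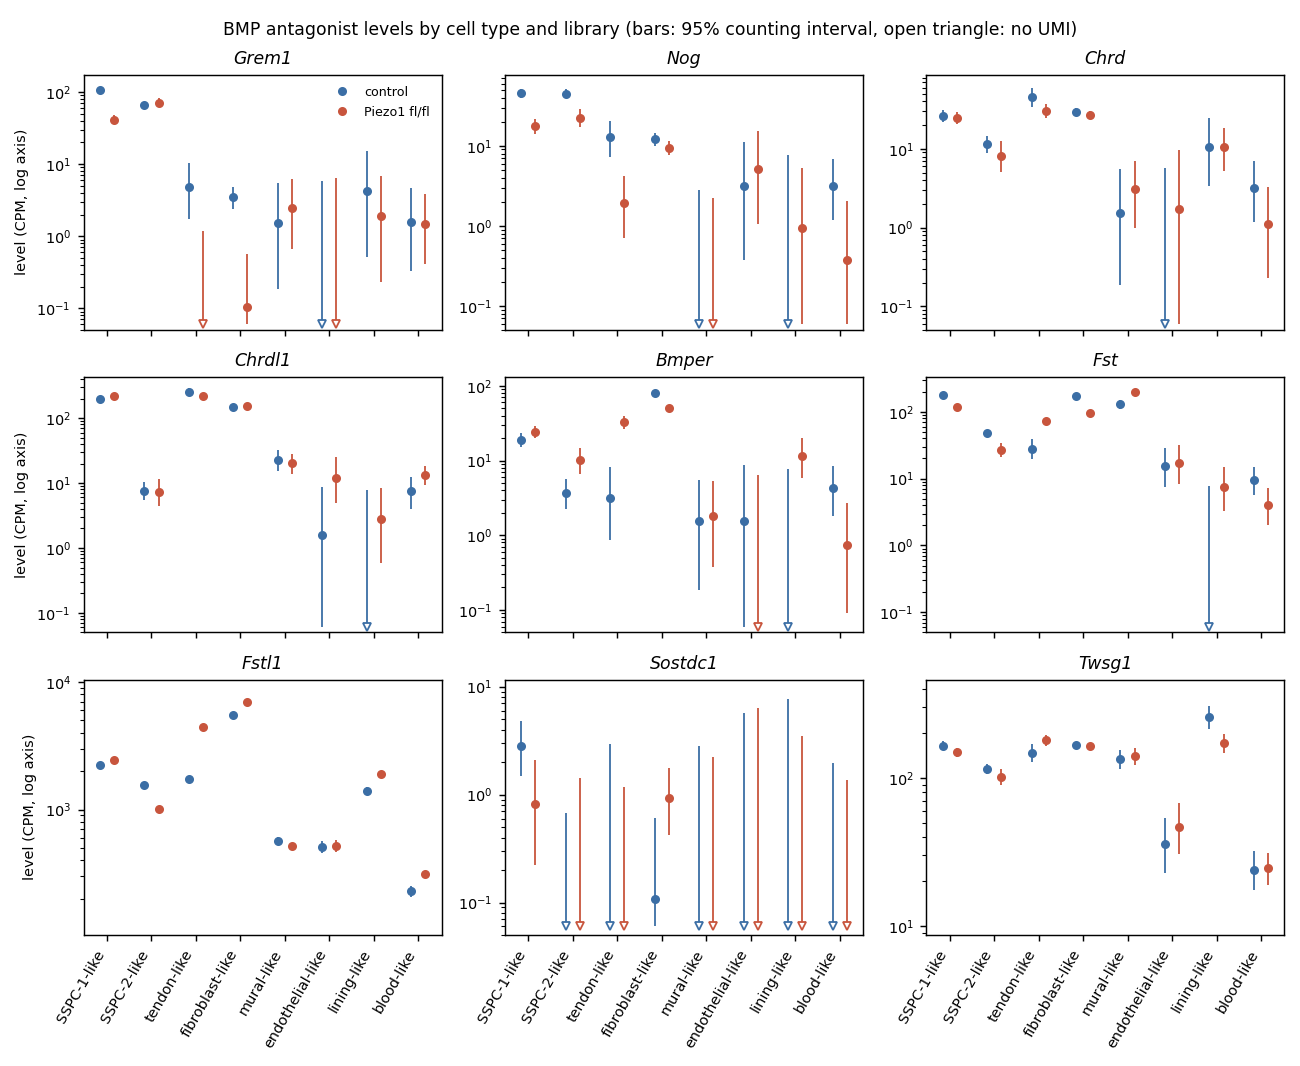
Level of each antagonist (CPM, log axis) in 8 cell types (x axis) of the control library (blue) and the Piezo1 fl/fl library (red), with bars for the 95% counting interval and open triangles at the foot for types with no UMI. Grem1 stands at 107 and 66.0 CPM in control SSPC-1-like and control SSPC-2-like cells and at 4.77 CPM or less in the other control types, while Bmper peaks in fibroblast-like cells at 81.2 CPM.

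The first comparison asked which antagonists distinguish SSPC-1-like from SSPC-2-like cells. A gene was counted as higher or lower when its level differed at least 2-fold and the higher side had at least 10 UMIs. In control, 5 of the 9 antagonists were higher in SSPC-1-like cells, against a background of 16.4% of 11783 genes, and none was lower, against 6.69%. The 5 were Chrdl1, Bmper, Fst, Chrd and Sostdc1. The median log2 ratio over all 9 was 1.19, with the 0 of Sostdc1 set at a floor of 3 counts, and the median of all genes was 0.24. In Piezo1 fl/fl, 5 of the 8 with enough UMIs were higher, against 14.6% of 11349 genes, and none was lower, against 6.33%. These were Chrdl1, Fst, Chrd, Fstl1 and Bmper, with a median over the 8 of 1.26 and a median of all genes of 0.20. A gene passes the UMI minimum through its higher side, so these counts describe the set and carry no test.

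Chrdl1 had the steepest difference, with a log2 ratio (the first type over the second) of 4.68 (4.23 to 5.16) in control and 4.87 (4.22 to 5.61) in Piezo1 fl/fl. Under other choices of clusters, cells or units the Chrdl1 ratio ran from 4.44 to 5.57 in control and from 2.275 to 5.85 in Piezo1 fl/fl. Fst was at 1.90 (1.70 to 2.10) and 2.11 (1.75 to 2.49). Chrd gave 1.19 (0.73 to 1.65) and 1.59 (0.92 to 2.34), and Bmper 2.38 (1.67 to 3.16) and 1.26 (0.64 to 1.93). For these 4 genes both libraries put SSPC-1-like cells above SSPC-2-like cells by at least 2-fold. Fstl1 was at 0.53 (0.48 to 0.57) in control and 1.26 in Piezo1 fl/fl, and Twsg1 at 0.51 and 0.56. Sostdc1 had 13 UMIs in control SSPC-1-like cells and none in SSPC-2-like cells. With 3 counts as the floor of the latter the log2 ratio was 2.36, and the exact lower limit from the counts was 1.85.

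Grem1 and Nog did not follow the antagonists that passed 2-fold in both libraries. In control Grem1 was, like Fstl1 and Twsg1, higher in SSPC-1-like cells by less than 2-fold. The log2 ratio of Grem1 was 0.70 (0.50 to 0.90) in control and -0.77 (-1.07 to -0.48) in Piezo1 fl/fl, so each library placed a different type on top. Nog was at 0.01 (-0.26 to 0.28) and -0.37 (-0.87 to 0.14). Over the alternatives Nog ran from -0.26 to 1.23 in control and from -1.26 to -0.37 in Piezo1 fl/fl. At resolution 0.8 control Nog was at 45.7 CPM in SSPC-1-like and 19.5 CPM in SSPC-2-like cells. A cluster of 241 cells set apart there by osteoblast markers, 208 of them SSPC-2-like at the usual resolution, had 105 CPM. The Grem1 value of Piezo1 fl/fl depended on how cells at the border of the types were assigned: it was between -4.41 and -4.87 under 5 other choices of clusters or cells, in which a group of Grem1-bearing cells left the SSPC-1-like type, while the control value kept its sign, from 0.19 to 1.07, under all 12 alternatives.

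**Figure D2:**
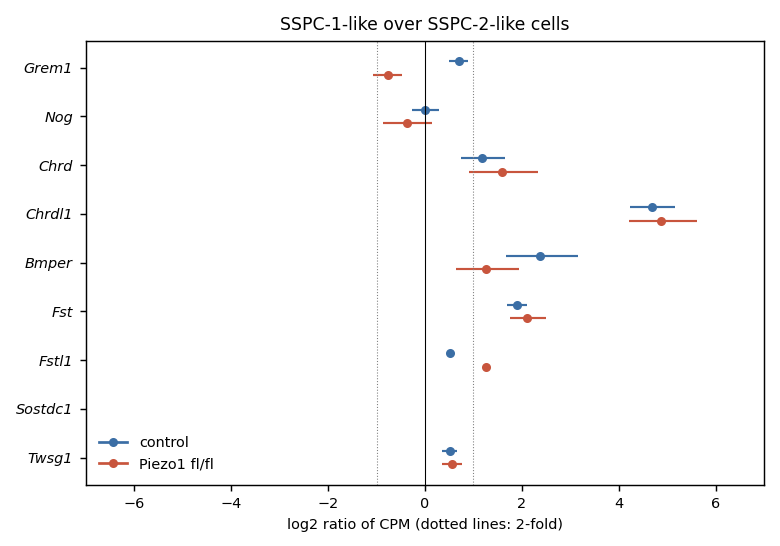
Log2 of the SSPC-1-like level divided by the SSPC-2-like level (x axis) for each antagonist (y axis), control in blue and Piezo1 fl/fl in red, with 95% counting intervals, a solid line at equal levels and dotted lines at 2-fold. Chrdl1 lies farthest to the right at 4.68 and 4.87, Grem1 falls on opposite sides of the line in the libraries, and Sostdc1 is not drawn because it had no UMI in SSPC-2-like cells.

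Against fibroblast-like cells, the log2 ratio of control SSPC-1-like cells was 4.96 (4.44 to 5.52) for Grem1 and 1.91 (1.57 to 2.25) for Nog, while Bmper and Fstl1 were lower, at -2.09 (-2.43 to -1.77) and -1.31 (-1.34 to -1.28). The Piezo1 fl/fl ratios of Nog, Bmper and Fstl1 were 0.89, -1.05 and -1.51. Fst, Twsg1 and Chrd stood at 0.05, -0.01 and -0.18 in control, all within counting error. Against tendon-like cells, 4 of 9 antagonists were higher in control SSPC-1-like cells (14.2% of all genes), Grem1 at 4.49 (3.36 to 5.94), Fst at 2.69 (2.20 to 3.22), Bmper at 2.58 (1.18 to 4.49) and Nog at 1.83 (1.10 to 2.67). The Piezo1 fl/fl ratios of Fst, Bmper and Nog were 0.69 (0.47 to 0.92), -0.44 (-0.83 to -0.04) and 3.19 (2.01 to 4.68), and Grem1 had 203 UMIs in SSPC-1-like and 0 in tendon-like cells. Chrdl1 was at -0.38 (-0.57 to -0.19) in control and -0.01 (-0.15 to 0.13) in Piezo1 fl/fl.

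The second comparison set the Piezo1 fl/fl library against the control library within each type. In SSPC-1-like cells 3 of 9 antagonists were lower in Piezo1 fl/fl and none was higher. The background was 8.58% of genes counted in either direction, 5.55% lower and 3.03% higher. In SSPC-2-like cells 1 of 8 was higher (7.56% of genes in either direction, 3.25% higher). Tendon-like cells had 3 of 7 higher and 1 lower (14.2% in either direction, 8.7% higher and 5.54% lower). Fibroblast-like cells had 1 of 8 lower (6.88% in either direction, 4.76% lower). None of 4 was counted in mural-like (6.66% in either direction), none of 3 in endothelial-like (11.5%) and none of 4 in lining-like cells (15.0%). Blood-like cells had 1 of 4, Fst, lower (10.6% in either direction, 4.96% lower). Its ratio was -1.22 on 11 and 18 UMIs and 0.53 with doublet calls kept. The medians of the members in SSPC-1-like, SSPC-2-like, tendon-like and fibroblast-like cells were -0.15, -0.34, 0.28 and -0.24, beside -0.05, -0.01, 0.02 and -0.03 for all genes.

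Nog was lower in Piezo1 fl/fl beyond counting error in 3 of the 4 mesenchymal types. Its log2 ratio was -1.38 (-1.76 to -1.01) in SSPC-1-like cells, between -1.43 and -0.58 in the SSPC-2-like type (1.99-fold lower) and -2.74 (-4.38 to -1.31, 6 against 16 UMIs) in tendon-like cells. In fibroblast-like cells it was -0.36 (-0.78 to 0.05). The tendon-like ratio of Nog turned to 0.086 at resolution 0.2. The SSPC-1-like value lay between -1.37 and -1.73 under all 11 alternatives that gave one. The SSPC-2-like ratio turned to 0.39 at the finer resolution of 0.8, where osteoblast-marked cells formed a cluster of their own in control. That control cluster, of 241 cells, had 105 CPM of Nog (89.5 to 123) and 90.2 CPM of Grem1, beside 19.5 and 51.6 CPM in the remaining 562 SSPC-2-like cells. At the usual resolution, 208 of the 241 cells count among the SSPC-2-like cells of control. In Piezo1 fl/fl the SSPC-2 name at resolution 0.8 also took 176 cells, 173 of them SSPC-1-like at the usual resolution, with 38.0 CPM of Nog. The other 391 Piezo1 fl/fl cells of that name had 21.2 CPM, and the part of each change in the ratio of 0.39 was not tested.

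Grem1 had a log2 ratio of -1.36 (-1.60 to -1.12) in SSPC-1-like cells, while the SSPC-2-like value of 0.11 (-0.16 to 0.37) lay within counting error. Fst was at -0.63 (-0.79 to -0.47), -0.84 (-1.25 to -0.45) and -0.86 (-0.98 to -0.74) in the SSPC-1-like, SSPC-2-like and fibroblast-like types, lower in all 3 but by less than 2-fold, and at 0.01 in SSPC-2-like cells at resolution 0.8. At that resolution Fst was at 55.9 CPM in the 176 added Piezo1 fl/fl cells, 27.0 CPM in the other 391 and 34.4 CPM in the 562 control cells. Bmper was the antagonist counted as higher in SSPC-2-like cells, at 1.47 (0.57 to 2.38) on 26 and 20 UMIs, and 5 cells held 69.2% of the 26. In the SSPC-2-like cluster of both libraries together Bmper was at 0.67 (-0.96 to 2.21) on 7 and 10 UMIs, which ends that call. Sostdc1 was at -1.78 (-3.85 to -0.08) in SSPC-1-like cells, on 4 and 13 UMIs. Chrd, Chrdl1 and Twsg1 moved little in SSPC-1-like cells, at -0.09, 0.13 and -0.15. In fibroblast-like cells Grem1 was at -5.06 (-10.41 to -2.48), from 1 and 32 UMIs, and at 1.08 with the libraries clustered together. The chondrocyte list summed to 1475 CPM in control and 90.6 CPM in Piezo1 fl/fl fibroblast-like cells, and to 2715 and 144 CPM in the Pi16 cluster, and its part in the Grem1 ratio was not tested. The Pi16 fibroblast-like cluster held 31 of the 32, and the 7 control cells with Grem1 had 7882 CPM of the mature osteoblast list against 305 CPM in the other fibroblast-like cells.

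In tendon-like cells 3 antagonists were higher in Piezo1 fl/fl. Bmper was at 3.18 CPM (4 UMIs) in control and 32.7 CPM (103 UMIs) in Piezo1 fl/fl, a log2 ratio of 3.36 (1.96 to 5.27). Fst was at 27.8 and 71.8 CPM (1.37, 0.85 to 1.93) and Fstl1 at 1724.5 and 4421 CPM (1.36, 1.29 to 1.42). The tendon marker list itself summed to 44487 CPM in control and 23622 CPM in Piezo1 fl/fl tendon-like cells, and the Pi16 fibroblast list to 835 and 1846 CPM, and the part of these differences in the 3 ratios was not tested. With the libraries clustered together the tendon-like cluster held 268 and 550 cells, and the ratios were 1.11 (0.03 to 2.35) for Bmper, -0.13 (-0.47 to 0.22) for Fst and 0.76 (0.71 to 0.82) for Fstl1. With cells typed one by one from marker UMIs Bmper was at 0.04 and Fst at -1.07, so neither increase held under every way of setting the type.

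**Figure D3:**
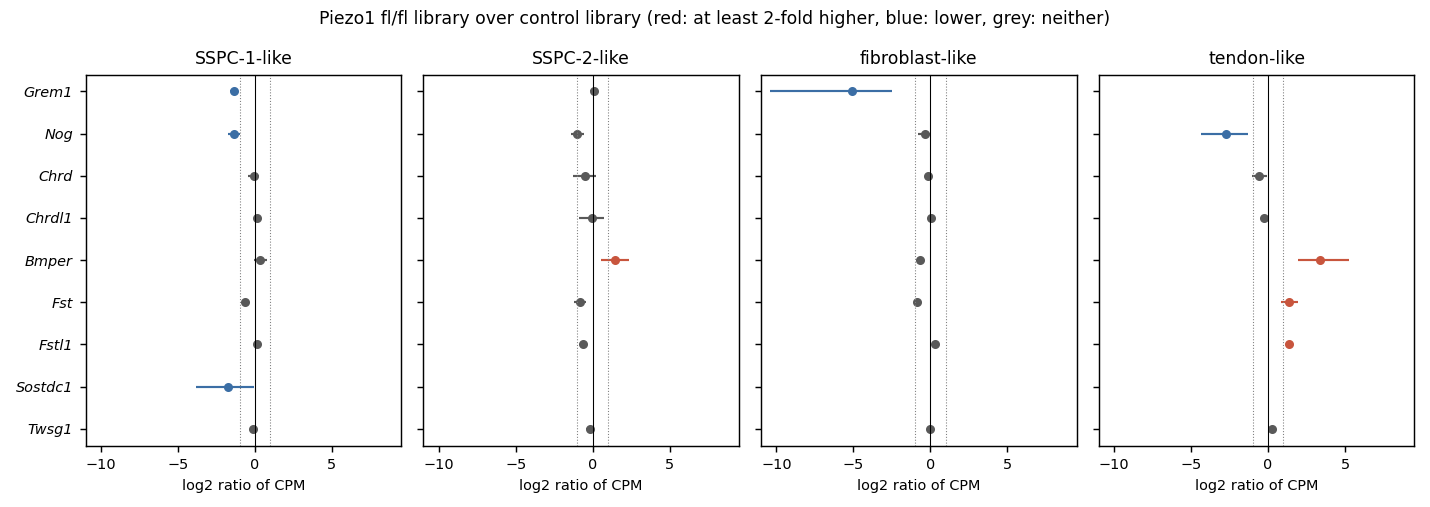
Log2 ratio of the level in the Piezo1 fl/fl library over the control library (x axis) for each antagonist (y axis) in 4 cell types, with 95% counting intervals, dotted lines at 2-fold, red for at least 2-fold higher, blue for at least 2-fold lower and grey for neither. Genes with under 10 UMIs on the higher side are left out. In SSPC-1-like cells Grem1, Nog and Sostdc1 lie to the left at -1.36, -1.38 and -1.78.

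The SSPC-1-like difference in Grem1 was followed into clusters built from both libraries together, an analysis added after the first results were seen. At the finer resolution the SSPC-1-like cells fell into a cluster led by Chad and a cluster led by Crabp1, Kcnj2 and Grem1. None of the 9 antagonists was among the clustering features, but Grem1 is among the genes that set this cluster apart, so its level there is a description. The Chad-led cluster held 393 control cells (48.3% of SSPC-1-like cells) and 785 Piezo1 fl/fl cells (79.9%), and the Crabp1-led cluster 420 (51.7%) and 197 (20.1%). In the latter Grem1 was at 188 CPM (172 to 206) in control and 192 CPM (167 to 219.7) in Piezo1 fl/fl, against 4.33 and 4.35 CPM in the Chad-led cluster. The log2 ratio between libraries was 0.03 (-0.21 to 0.26) in the Crabp1-led cluster, 0.01 (-1.28 to 1.38) in the Chad-led cluster and 0.05 (-0.23 to 0.33) in SSPC-2-like cells.

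Nog in the same clusters was lower in Piezo1 fl/fl. It was at 26.0 and 14.8 CPM in the Chad-led cluster (log2 ratio -0.81, -1.39 to -0.23), at 59.8 and 22.7 CPM in the Crabp1-led cluster (-1.40, -2.07 to -0.78) and at 46.0 and 27.2 CPM in SSPC-2-like cells (-0.76, -1.18 to -0.36). Fst went from 162 to 134 CPM in the Chad-led cluster (-0.27, -0.48 to -0.07) and from 189 to 73.7 CPM in the Crabp1-led cluster (-1.36, -1.72 to -1.02), and from 49.4 to 27.2 CPM in SSPC-2-like cells (-0.86, -1.28 to -0.46). Chrdl1 was at 181 and 207 CPM in the first and 204 and 157 CPM in the second. In these 3 clusters the Grem1 intervals included equal levels, while those of Nog and Fst lay below 0. The Crabp1-led cluster carried 2500 CPM of the SSPC-2 list in control and 3674 CPM in Piezo1 fl/fl, more than the 500 and 278 CPM of the Chad-led cluster.

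**Figure D4:**
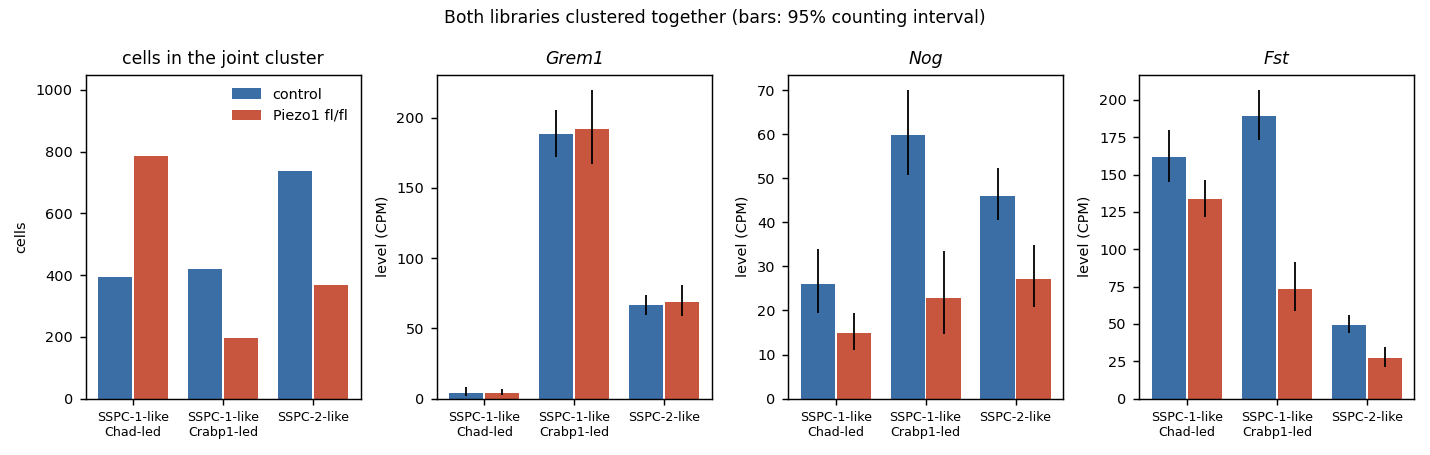
Cells (first panel) and levels of Grem1, Nog and Fst in CPM (other panels) in 3 clusters of both libraries together, control in blue and Piezo1 fl/fl in red, with 95% counting intervals as black lines. The Crabp1-led cluster has 420 control and 197 Piezo1 fl/fl cells with Grem1 at 188 and 192 CPM, while Nog in that cluster is at 59.8 and 22.7 CPM.

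The ligands that these antagonists bind were counted from a list of 14 BMP and related genes. In control 6 of the 11 with enough UMIs were higher in SSPC-1-like than in SSPC-2-like cells and 3 lower, against 16.4% and 6.69% of all genes. In Piezo1 fl/fl 5 of 10 were higher and 4 lower, against 14.6% and 6.33%. Bmp4 stood at 39.4 and 2.93 CPM in control SSPC-1-like and control SSPC-2-like cells and at 46.0 and 4.28 CPM in Piezo1 fl/fl. The activin subunit genes Inhba (330.4 and 55.8 CPM in control, 122 and 35.0 CPM in Piezo1 fl/fl) and Inhbb (51.5 and 4.94 CPM, 23.8 and 7.39 CPM) and the BMP3-related Gdf10 (183 and 32.6 CPM, 68.3 and 19.4 CPM) were also higher in SSPC-1-like cells. Bmp2 went the other way, at 36.8 and 89.1 CPM in control and 34.1 and 114 CPM in Piezo1 fl/fl, as did Bmp8a (1.08 and 15.9 CPM, 0.82 and 32.7 CPM) and Gdf11 (5.41 and 18.1 CPM, 4.51 and 17.1 CPM). Bmp3 was at 27.9 and 30.9 CPM in control and 15.4 and 57.6 CPM in Piezo1 fl/fl. Gdf5, a ligand of joint development, had 11 and 1 UMIs in control and 40 and none in Piezo1 fl/fl, and Bmp6 had 12 and 9 and then 3 in each type. Bmp4, Inhba and Inhbb were higher in the type where Fst, Chrdl1 and Chrd were higher, and Bmp2 and Bmp8a in the other.

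**Figure D5:**
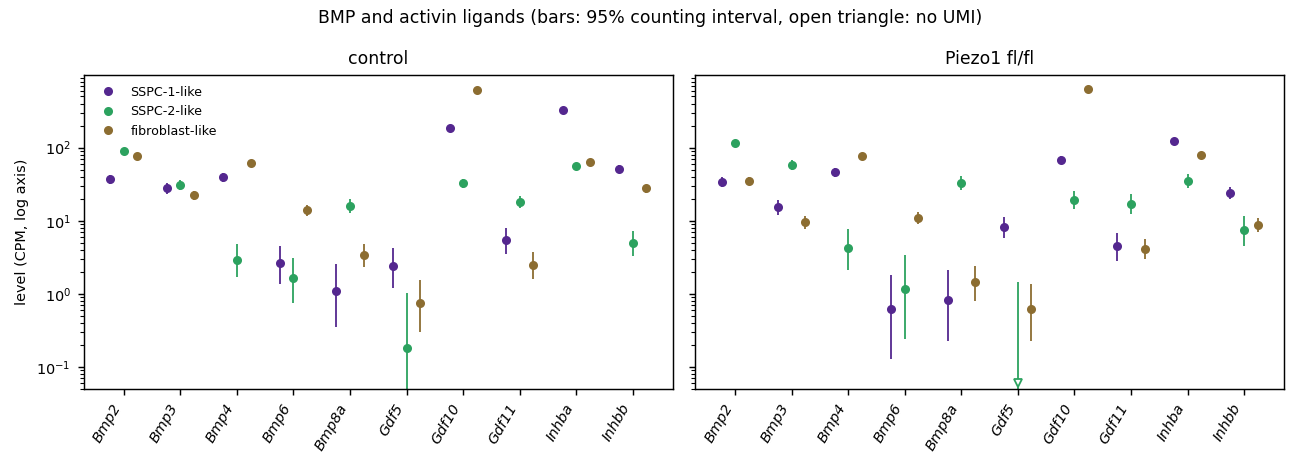
Levels (CPM, log axis) of the named BMP and activin ligand genes (x axis) in SSPC-1-like (purple), SSPC-2-like (green) and fibroblast-like cells (brown) of each library, with 95% counting intervals and an open triangle for no UMI. Bmp4 is at 39.4 CPM in control SSPC-1-like and 2.93 CPM in control SSPC-2-like cells, and Bmp2 at 36.8 and 89.1 CPM.

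Of 10 receptor and co-receptor genes, 4 were higher in SSPC-1-like cells in control (16.4% of all genes) and 3 in Piezo1 fl/fl (14.6%), and none was lower (6.69% and 6.33%). The co-receptor Rgma was at 19.3 CPM in control SSPC-1-like and 0.73 CPM in SSPC-2-like cells, the type I receptor Acvrl1 at 35.5 and 10.1 CPM, and Bmpr1b had 12 and 1 UMIs. The main BMP receptors Bmpr1a and Bmpr2 were at 322 and 174 CPM and at 272 and 201 CPM, below 2-fold, as were Acvr1 (142 and 99.3 CPM), Eng (42 and 45 UMIs) and Rgmb (31.8 and 18.1 CPM). Among 13 SMAD and target genes with enough UMIs, 1 was higher and 1 lower in control, where the shares of all genes were 16.4% and 6.69%, and 1 higher and 3 lower in Piezo1 fl/fl, where they were 14.6% and 6.33%. The median log2 ratios of these 13 were 0.14 in control and -0.06 in Piezo1 fl/fl, beside 0.24 and 0.20 for all genes. Smad9 was lower in SSPC-1-like cells in both libraries (9.96 and 22.5 CPM in control, 4.72 and 14.8 CPM in Piezo1 fl/fl). The BMP target genes Id1 and Id3 were at 75.1 and 31.5 CPM and at 875 and 509 CPM in control, and neither passed 2-fold in both libraries. Id2 was at 658 and 425 CPM, Smad1 at 52.4 and 76.1 CPM, Smad4 at 167 and 144 CPM and Smad7 at 94.2 and 85.6 CPM in control, each below 2-fold.

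Other extracellular antagonists and chordin-cutting proteases were also measured. Nbl1 was at 555 and 249 CPM in control SSPC-1-like and control SSPC-2-like cells and at 774 and 454 CPM in Piezo1 fl/fl, and Crim1 at 102 and 51.4 CPM and at 92.5 and 38.9 CPM, each past 2-fold in 1 library only. Bmp1, a protease that cuts chordin, was lower in SSPC-1-like cells (134 and 297 CPM in control, 141 and 329.8 CPM in Piezo1 fl/fl) and the related Tll1 higher (32.3 and 9.33 CPM, 15.6 and 2.72 CPM). Between libraries, SSPC-1-like cells had lower Inhba (log2 ratio -1.43, -1.57 to -1.30), Inhbb (-1.11, -1.45 to -0.79) and Gdf10 (-1.42, -1.61 to -1.23) in Piezo1 fl/fl, 4 of 10 ligands in all being lower and 1, Gdf5, higher, against 5.55% and 3.03% of all genes.

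Genes whose level ran most like each antagonist over 19 points (cell types of both libraries) were named as a description, since the points share libraries and total counts. The closest to Grem1 were Dlx5 (Pearson's r 0.93), Fgfr2 (0.90) and Dlx6 (0.89). For Nog they were Kazald1 (0.92), Gxylt2 (0.88) and Flrt2 (0.87), for Chrdl1 Twist2 (0.90), Nox4 (0.90) and Osbp2 (0.90), and for Bmper Col6a5 (0.91), Cyp2f2 (0.90) and Sfrp1 (0.89). Fst was closest to Atp10a (0.92), Angpt1 (0.90) and Syde2 (0.89), and Chrd to Eprs (0.95), Tmem45a (0.95) and Dcn (0.94). Fstl1 ran with Poglut3 (0.97), Atf5 (0.94) and Ibtk (0.94), and Twsg1 with Map1a (0.96), Dzip1 (0.96) and Pard3 (0.95). Among the antagonists themselves, Chrd and Fstl1 were the most alike (0.86) and Grem1 and Fstl1 the least (-0.03), with Grem1 and Nog at 0.54.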

How the data were processed

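Cells of 2 genotypes were profiled by single-cell RNA sequencing of sorted periosteal cells on the BD Rhapsody system, 1 library each. The deposited matrices hold UMI counts per gene and cell that the authors had not normalized. Per the submitters' processing notes, fastp, UMI-tools, STAR and Seurat 4.0.3 were named; the genome build and annotation behind the counts are not given in the sources used here. The matrices held 6118 control barcodes with 28030299 UMIs and 7469 Piezo1 fl/fl barcodes with 32337308 UMIs, and no column was left unmapped.

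Following the filters of the study's methods, a cell needed 1000 to 5000 detected genes and a mitochondrial share below 25%. Scrublet calls were removed (scanpy 1.11.5; 46 of 5551 control and 67 of 6784 Piezo1 fl/fl barcodes scored, 0.829% and 0.988%). Each library was log-normalized and clustered apart in Seurat 5.3.0 under R 4.3.3 (2000 variable features, 30 principal components, graph on 20, resolution 0.4), with the 9 antagonists and a list of 49 pathway genes taken out of the features. Clusters were named from 14 lists of 112 marker genes. The thresholds for naming were set after the clusters had been seen, and the Pi16, Inmt and mixed fibroblast clusters were joined as 1 fibroblast-like type. Another naming could move cells between neighbouring types.

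UMI counts were summed per type and divided by the total of the type. Intervals are exact Poisson, binomial or conditional intervals at 95%, computed in Python 3.11.15 with scipy 1.17.1. They cover counting error only, and a count of 0 was set at a floor of 3 counts per type where a bound was needed. With 1 library per genotype there was no test. A ratio was counted from 2-fold with 10 UMIs on the higher side, and the calculation was tested on simulated data. All 9 antagonists were named. Pathway genes were named where they had 1 of the 3 highest levels of their group in a main type, or passed 2-fold between the stem/progenitor types in both libraries. The antagonists, lists and comparisons were chosen with earlier results of these data known. Gene positions came from a GRCm38 annotation matched by identifier, which held 31107 of the 31253 genes. Alternatives changed the resolution, the cell filters, doublets, features, typing, unit, total and UMI minimum. 1 gene of the pathway list is not reported here.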

Additional observations from a re-analysis of the deposited data

Results flagged for a closer look

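In a group of this size no library can be called an outlier, so values were singled out where the libraries disagreed in direction beyond counting error or where a type outside the comparisons exceeded all those within them. None of these differences was tested, since there was 1 library per genotype. The log2 ratio of Grem1 between SSPC-1-like cells and the SSPC-2-like type was 0.70 in control and -0.77 in Piezo1 fl/fl. In SSPC-1-like over tendon-like cells the log2 ratio of Bmper was 2.58 in control and -0.44 in Piezo1 fl/fl, and that of Fstl1 was 0.37 and -0.87. The tendon marker list summed to 44487 CPM in control and 23622 CPM in Piezo1 fl/fl tendon-like cells.

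Outside the 8 types compared, Chrdl1 reached 529 CPM (426 to 649.9) in 33 perineurial-like cells of control, above its 257 CPM in tendon-like cells. Bmper was at 128 CPM (113 to 144) in 321 Piezo1 fl/fl cells of an unnamed cluster led by Cfd, above the fibroblast-like level (45.7 to 54.7 CPM). The Cfd-led cluster had 3745 CPM of the Pi16 and 2842 CPM of the Inmt fibroblast list, beside 4963 and 2793 CPM in Piezo1 fl/fl fibroblast-like cells. It held 269 of the 1018 Bmper UMIs of retained Piezo1 fl/fl cells, which the fibroblast-like level leaves out. Twsg1 was at 321 CPM (254 to 399.5) in 27 Piezo1 fl/fl cells named chondrocyte-like, which had 14401 CPM of the chondrocyte list but 42721 CPM of the mature osteoblast list, above the 179.6 CPM of tendon-like cells. Each of these groups was found in 1 library alone under the naming used.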

How the results depend on the processing

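No paired analysis was possible because each genotype had 1 library. Of 114 counts recomputed under the alternatives, 105 stayed within 1.5 times the reported count and 9 did not, and of 928 levels and ratios 708 stayed within their counting interval and 216 moved, while 4 of the ratios past 2-fold changed sign. Ratios under 2-fold also changed sign, among them Nog (0.39) and Fst (0.01) in SSPC-2-like cells at resolution 0.8. The number of antagonists higher in SSPC-1-like cells was 4 to 7 in control and 4 to 5 in Piezo1 fl/fl. In Piezo1 fl/fl, 1 antagonist was lower in SSPC-1-like cells, where 0 was reported, at resolution 0.8, with wider limits on genes per cell, under 10% mitochondrial UMIs, with doublet calls kept and with the antagonists among the features, and 2 were lower with cells typed one by one from marker UMIs. At resolution 0.8 a group of 176 cells led by Grem1, 173 of them from the SSPC-1-like type, received the SSPC-2 name by score although its leading genes held no SSPC-2 marker. It had 5818 CPM of the SSPC-1 and 4044 CPM of the SSPC-2 list and 204 CPM of Grem1. The 868 cells left in the SSPC-1-like type had 5.00 CPM, and the Grem1 ratio between libraries there was -4.43, with -4.91 to -1.21 over all 11 alternatives. Over types, 8 values were higher in Piezo1 fl/fl at resolution 0.8 against 4 reported, and 2 were lower at resolution 0.2 and 3 with at least 30 UMIs against 6 reported. Signs changed for Nog in tendon-like cells at resolution 0.2 (0.086, reported -2.74), Fst in blood-like cells with doublet calls kept (0.53, reported -1.22), Fst in tendon-like cells typed one by one (-1.07, reported 1.37) and Grem1 in fibroblast-like cells with the libraries clustered together (1.08, reported -5.06). The cause was not tested. Fst in mural-like cells went from 0.60 to -2.03 without the 5 richest cells. Resolution 0.2 gave no SSPC-1-like type in Piezo1 fl/fl, and no control lining-like type was found with the antagonists among the features. The joint clustering was chosen after seeing the data. Counts under 10 UMIs limit Sostdc1 in all types but 1 and Grem1 in tendon-like, mural-like, endothelial-like, lining-like and blood-like cells. The same holds for Nog in mural-like, endothelial-like, lining-like and blood-like cells. It holds for Chrd and Bmper in mural-like, endothelial-like and blood-like cells, Chrdl1 in endothelial-like and lining-like cells and Fst in lining-like cells. In Piezo1 fl/fl alone it limits Grem1 in fibroblast-like and Nog in tendon-like cells. In control alone it limits Bmper in tendon-like cells and Bmper and Chrd in lining-like cells.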
